A study of Mus musculus with 4 samples.

Results

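The 10 genes described here encode the core transcription factors of the naive pluripotent state. They are Pou5f1 (the gene of Oct4), Sox2, Nanog, Esrrb, Tfcp2l1, Klf2, Klf4, Klf5, Tbx3 and Zfp42 (the gene of Rex1). They were chosen by name, and 10 of 20723 gene symbols on the array are members. For 9 of them the symbol itself stands in the table. Tfcp2l1 stands there under its older symbol, Tcfcp2l1, and was matched through its RefSeq accession. Each member has 1 probe set, so no choice between probe sets was needed.

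The study silenced Ogt in E14 cells, an embryonic stem cell line from Ola129 mice, and asked in its title how TET proteins bring Ogt to chromatin. Ogt is the enzyme that attaches the sugar O-GlcNAc to nuclear and cytosolic proteins. The silenced cells received esiRNA against Ogt (2 arrays, esiOgt), and the control cells received esiRNA against GFP (2 arrays, esiGFP). An esiRNA is a mixture of short interfering RNAs cut by an enzyme from 1 long double-stranded RNA, and the transfection was transient. Both groups were grown on gelatin in medium with 15% serum and LIF, carried no other stated change, and gave total RNA at 48 h. Silencing by RNA interference lowers a transcript without removing it. The labels do not say whether the replicates were separate cultures, so the spread between arrays may be technical.

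The naive state is the ground form of pluripotency, and a small set of factors that bind and activate one another's genes sustains it. Oct4 and Sox2 bind DNA side by side and are needed in all pluripotent cells. Nanog, Esrrb, Tfcp2l1, the Klf factors and Tbx3 form the part of the network that LIF, through STAT3 and PI3K, and inhibition of ERK feed. Oct4 and Sox2 proteins are known to carry O-GlcNAc in mouse stem cells, which an array of transcripts does not read.

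The promoters of 8 members, those other than Klf5 and Tbx3, have an entry in the RefSeq promoter table of build GRCm38.p6. Short motifs were searched for on both strands in the 250 bases before each start. The reference is of strain C57BL/6J, not of the cells' own strain. The octamer core ATGCAAA, the letters Oct4 reads, occurs before the starts of Sox2, Nanog and Zfp42, and in 4.12% of 32851 windows of this length. In Nanog it is followed, 1 base on, by the Sox core ACAATG, the arrangement in which Oct4 and Sox2 bind together. These joined letters occur in 2 of the 32851 windows, and both are the overlapping windows of Nanog's own 2 starts. The 3 stretches with the octamer core are shown because Oct4 and Sox2 are themselves members. Capitals mark the octamer core and the Sox core.

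Nanog, chr6:122707357-122707476, + strand: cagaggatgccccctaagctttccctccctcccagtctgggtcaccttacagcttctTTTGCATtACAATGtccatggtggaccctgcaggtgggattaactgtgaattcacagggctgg

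Sox2, chr3:34649839-34649958, + strand: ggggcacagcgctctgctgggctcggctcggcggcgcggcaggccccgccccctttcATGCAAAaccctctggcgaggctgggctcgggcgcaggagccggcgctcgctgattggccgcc

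Zfp42, chr8:43307132-43307251, - strand: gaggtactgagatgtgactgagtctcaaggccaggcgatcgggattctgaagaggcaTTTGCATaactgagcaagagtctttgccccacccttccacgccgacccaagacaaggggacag

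The Klf box CCNCNCCC, a GC-rich form read by Klf factors, occurs in 10 of the 11 windows of these 8 members, against 45.93% of all windows. Runs of G also match it, and overlapping matches were not merged. The GC share of the 11 windows ran from 45.6% to 74.0%, against a median of 52.4% over all windows. Its part in the Klf box count was not tested. Pou5f1, Nanog and Esrrb each have a second window, counted separately. The Esrrb core AAGGTCA and the T-box core AGGTGTG occur in 0 of the 11 windows, against 4.08% and 5.10% of all windows. The stretches of Esrrb and Tfcp2l1 that end at the start are given because these are the members whose arrays separated by group, as described below. For Esrrb the stretch comes from the window further upstream. Its other window holds a single Klf box, CCCCACCC, and which start these cells use was not tested. Capitals mark Klf boxes and, in Tfcp2l1, the TATA box TATAAA, which 12.37% of windows hold. All of these are matches of letters and not measured binding.

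Esrrb, chr12:86360997-86361116, + strand: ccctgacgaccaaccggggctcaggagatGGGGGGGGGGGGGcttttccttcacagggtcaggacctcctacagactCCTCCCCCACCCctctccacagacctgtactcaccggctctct

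Tfcp2l1, chr1:118627825-118627944, + strand: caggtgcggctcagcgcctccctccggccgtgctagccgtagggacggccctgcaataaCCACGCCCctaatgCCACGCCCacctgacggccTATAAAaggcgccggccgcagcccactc

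Each array gives a log2 expression value per probe set, on a scale where 1 unit is a 2-fold difference. The array medians were 6.41 and 6.43 in esiOgt cells, against 6.40 and 6.46 in esiGFP cells. Values of different probe sets depend on the probes, so no order between genes is read from them. Ogt itself read 9.73 and 10.09 in esiOgt cells, against 11.51 and 11.38 in esiGFP cells. The mean levels of the 10 members over the arrays lay between 9.61 and 12.41. Among the other stem cell markers, Dppa5a read 13.46 and 13.44 in esiOgt cells, against 13.47 and 13.34 in esiGFP cells. Lin28a read 9.26 and 9.36 in esiOgt cells, against 9.77 and 9.52 in esiGFP cells. The Lin28a groups did not overlap, as was so for 39.5% of all symbols, and Fgf4 is given below. The mean over 19 fibroblast markers was 5.91 and 5.90 in esiOgt cells, against 5.91 and 5.88 in esiGFP cells.

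The arrays also differed by replicate number. The transcript of Zscan4c, a marker of the rare stem cells that resemble the 2-cell embryo, read 7.31 and 10.98 in esiOgt replicates 1 and 2, against 8.14 and 11.58 in esiGFP replicates 1 and 2. The mean over 11 measured markers of that state was 6.32 and 8.18 in esiOgt cells, against 6.70 and 8.63 in esiGFP cells. Replicate 2 was thus the higher array of each group, and 10 of the 11 markers were higher in replicate 2 in both groups. The labels do not say that equal numbers share a batch or a day.

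None of the 10 members passed the comparison of esiOgt with esiGFP cells over all probe sets (limma, adjusted p under 0.05), and neither did any of the 34760 probe sets, a share of 0%. The silenced gene Ogt did not pass either, with a log2 change of -1.54 (limma unadjusted p = 0.00057, adjusted p = 0.674). That adjusted p was the smallest of all probe sets. The members' adjusted p-values ran from 0.674 to 0.9997. At an unadjusted p under 0.05 there was 1 member, Esrrb, against 6.06% of all gene symbols. It was higher in esiOgt cells, as were 3.40% of symbols at that level. The mean was higher in esiOgt cells for 9 of the 10 members, the exception being Sox2, where 51.2% of all symbols were higher. The median log2 change of the members was 0.17, and that of all symbols 0.00. The count of 9 rested on particular arrays. It was 4 without esiOgt replicate 2 and 4 without esiGFP replicate 1, with median log2 changes of -0.02 and -0.01. It was 8 without esiOgt replicate 1 and 9 without esiGFP replicate 2. Leaving out 1 array also unbalances the replicate numbers. Between arrays of equal replicate number, 6 members were higher in esiOgt cells in both comparisons and 1 was lower in both. Over all symbols, 35.3% were higher in both.

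**Figure D1:**
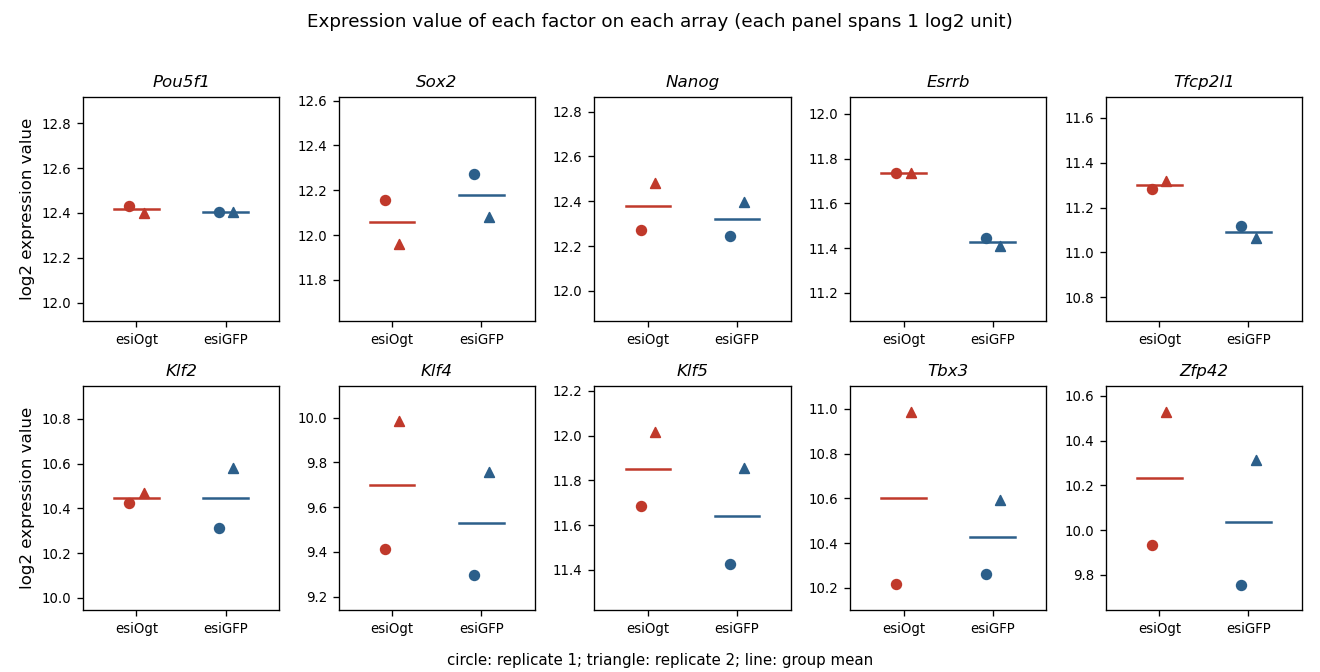
Log2 expression value (y axis) of the 10 members on each array, with esiOgt arrays in red left of esiGFP arrays in blue, replicate 1 as a circle, replicate 2 as a triangle and the group mean as a line. Each panel spans 1 log2 unit; only in Esrrb and Tfcp2l1 do both esiOgt arrays lie on the same side of both esiGFP arrays.

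Pou5f1, Sox2 and Nanog form the core of the network. Pou5f1 encodes Oct4, the POU factor without which the inner cells of the blastocyst do not become pluripotent. It read 12.43 and 12.40 in esiOgt cells, against 12.40 and 12.40 in esiGFP cells. The 4 arrays lay within a narrow band, and the log2 change was 0.01 (SE 0.11, 95% confidence interval -0.29 to 0.32). Its mean was 12.42 ± 0.02 (SD, n = 2) in esiOgt cells and 12.404 ± 0.0005 (SD, n = 2) in esiGFP cells. The standard error was far wider than these spreads because limma draws each gene's variance toward that of all genes.

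Sox2 encodes the HMG-box partner of Oct4. It read 12.15 and 11.96 in esiOgt cells, against 12.27 and 12.08 in esiGFP cells. The groups overlapped, and replicate 2 was the lower array in each. The log2 change was -0.12 (SE 0.15, interval -0.51 to 0.27), the only negative one of the 10.

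Nanog encodes a homeodomain factor whose level varies between stem cells grown in serum. It read 12.27 and 12.48 in esiOgt cells, against 12.24 and 12.40 in esiGFP cells. The groups overlapped, with the higher array of each group in replicate 2, and the log2 change was 0.06 (SE 0.14, interval -0.33 to 0.44), or 1.04-fold. Processed pseudogenes of Pou5f1 and Nanog exist in the mouse genome, and whether the probes match them was not tested.

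Esrrb and Tfcp2l1 are the members whose groups did not overlap. Esrrb encodes an orphan nuclear receptor that can stand in for Nanog in sustaining self-renewal. It read 11.74 and 11.74 in esiOgt cells, against 11.45 and 11.41 in esiGFP cells. Both esiOgt arrays lay above both esiGFP arrays by more than either group's own gap. The log2 change was 0.31 (SE 0.11, interval 0.003 to 0.62), or 1.24-fold. Its unadjusted p in limma was 0.0487 and its adjusted p 0.674. Without each array in turn the log2 change stayed between 0.29 and 0.33, while the unadjusted p was between 0.144 and 0.202. Those fits have fewer arrays. With all arrays, the p was 0.0568 once each array was centred on its median and 0.0503 with a robust variance prior. In the other alternatives with all arrays, limma gave an unadjusted p under 0.05. These ran from 0.0167, with a variance prior that depends on level, to 0.0475, with probe sets below the median level left out. The lowest adjusted p among them was 0.319.

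Tfcp2l1 encodes a CP2-type factor that acts downstream of LIF and STAT3. It read 11.28 and 11.32 in esiOgt cells, against 11.12 and 11.06 in esiGFP cells. Again both esiOgt arrays were the higher ones. The log2 change was 0.21 (SE 0.12, interval -0.10 to 0.52), or 1.16-fold, with an unadjusted p of 0.138. Without each array in turn it stayed between 0.18 and 0.24. For each of these 2 genes the two-sided exact permutation p was 0.333, the smallest that 2 arrays against 2 can reach. A gap of this kind was common on the arrays. It was found in 2 of the 10 members, against 39.5% of all symbols, and in the direction of higher values in esiOgt cells in 20.0% of symbols.

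**Figure D2:**
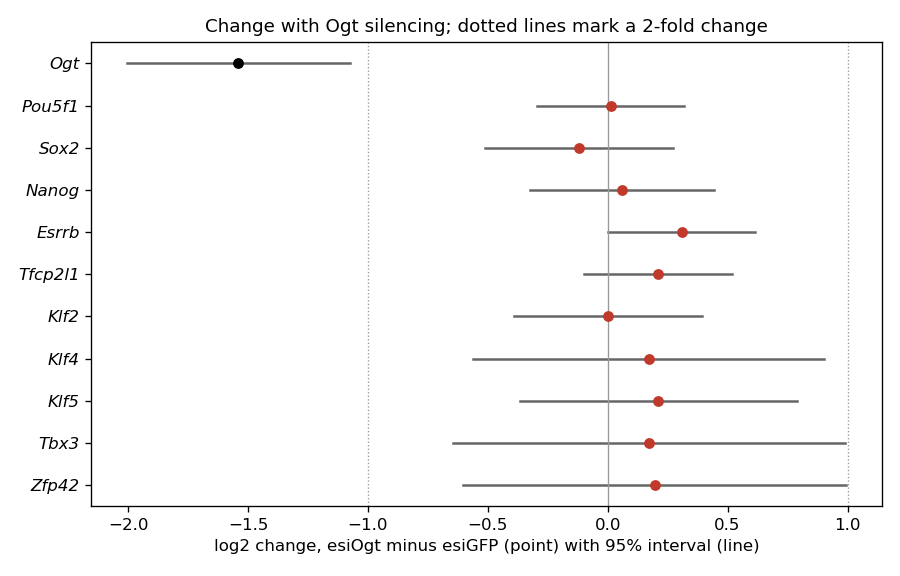
Log2 change between esiOgt and esiGFP cells (x axis; point) with its 95% confidence interval from limma (line), for Ogt and the 10 members. The interval of Ogt lies below -1, a 2-fold decrease, and all 10 members' intervals lie between the dotted lines at -1 and 1, with those of Tbx3 and Zfp42 ending at 0.99.

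The Klf genes encode zinc finger factors with overlapping roles in the naive state. Klf2 is known for a protein that ERK signalling destabilises, and Klf4 as a target of LIF and STAT3. Klf5, which like Klf4 answers to LIF, is also needed in the early embryo. Klf2 read 10.43 and 10.47 in esiOgt cells, against 10.31 and 10.58 in esiGFP cells. The esiOgt arrays lay inside the range of the esiGFP arrays, and the log2 change was 0.002 (SE 0.15, interval -0.39 to 0.39).

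Klf4 read 9.41 and 9.98 in esiOgt cells, against 9.30 and 9.76 in esiGFP cells. Replicate 2 was the higher array in both groups, and the groups overlapped. The log2 change was 0.17 (SE 0.27, interval -0.56 to 0.90), or 1.13-fold.

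Klf5 read 11.69 and 12.02 in esiOgt cells, against 11.43 and 11.85 in esiGFP cells. The pattern over the arrays was that of Klf4, with replicate 2 higher in each group. The log2 change was 0.21 (SE 0.21, interval -0.37 to 0.79), or 1.16-fold.

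Tbx3 encodes a T-box factor that helps to hold Nanog expression and that LIF maintains through PI3K. It read 10.22 and 10.98 in esiOgt cells, against 10.26 and 10.59 in esiGFP cells. The esiOgt cells held both the lowest and the highest array, so the esiGFP range lay inside that of esiOgt cells. Its log2 change was 0.17 (SE 0.30, interval -0.64 to 0.99). Without esiOgt replicate 2 it was -0.21 and without esiOgt replicate 1 it was 0.56.

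Zfp42 encodes Rex1, a zinc finger protein widely used as a marker of the naive state. It read 9.93 and 10.53 in esiOgt cells, against 9.76 and 10.31 in esiGFP cells. Here too replicate 2 was the higher array in each group. Between the groups the log2 change was 0.20 (SE 0.30, interval -0.60 to 0.99). Without esiOgt replicate 2 it was -0.10, and without esiOgt replicate 1 it was 0.49. Between arrays of equal number, esiOgt minus esiGFP was 0.18 in replicate 1 and 0.22 in replicate 2.

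The members thus differed in how closely arrays of 1 group matched. The residual SD around the group means ran from 0.017 in Pou5f1 to 0.418 in Tbx3, with a median of 0.136, close to the 0.134 of all symbols. In 7 members, all but Pou5f1, Esrrb and Tfcp2l1, the gap between the arrays of each group was wider than the difference between the group means. Zfp42 showed a gap between replicates of 0.59 log2 units in esiOgt cells and 0.56 in esiGFP cells, beside a difference between groups of 0.20. For Klf4 the gaps were 0.57 in esiOgt cells and 0.46 in esiGFP cells. For Klf5 they were 0.33 and 0.43, and for Tbx3 0.77 and 0.33, each with the esiOgt gap first. Replicate 2 was the higher array in both groups for 6 members (Nanog, Klf2, Klf4, Klf5, Tbx3 and Zfp42), and the lower in both for Pou5f1 and Sox2. Over all symbols, 32.6% were higher and 35.6% lower in replicate 2 in both groups. The markers of the 2-cell-like state moved the same way between replicates as these 6 members, and their part in the members' values was not tested.

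**Figure D3:**
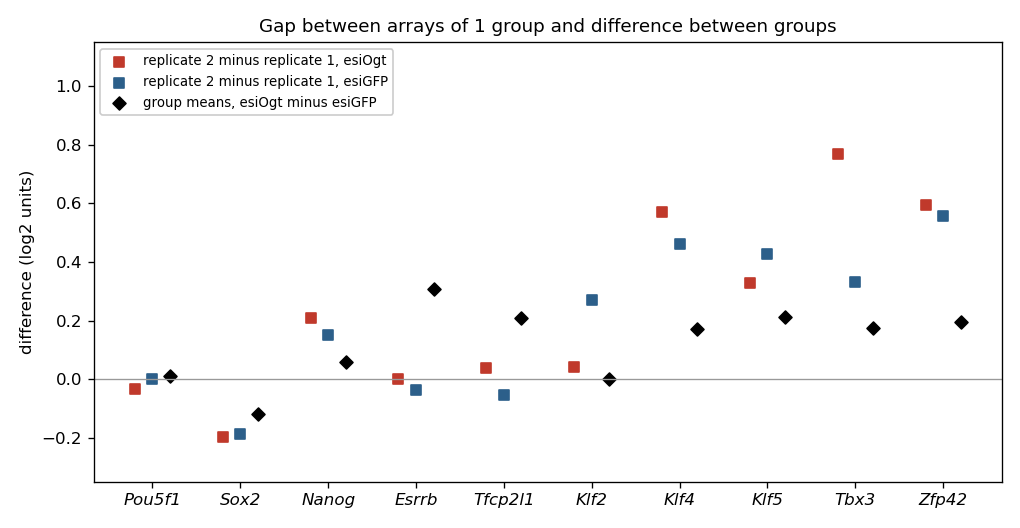
Differences in log2 units (y axis) for each member: replicate 2 minus replicate 1 within esiOgt cells (red) and within esiGFP cells (blue), and the difference of the group means, esiOgt minus esiGFP (black). The replicate gaps lie above the group difference in Nanog, Klf2, Klf4, Klf5, Tbx3 and Zfp42 and near 0 in Pou5f1, Esrrb and Tfcp2l1.

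The arrays limit differently what can be said of each member. The 95% intervals, which are not adjusted for the 10 genes, lay within a 2-fold change for 10 of 10. They lay within a 1.5-fold change for 5, namely Pou5f1, Sox2, Nanog, Klf2 and Tfcp2l1. The widest upper bound was 1.99-fold, for Zfp42, and the lowest bound was 0.640-fold, for Tbx3. These intervals come from the fit with group as the only term. With replicate number added as a block, the SE was 0.093 for Zfp42, 0.097 for Klf4 and 0.097 for Klf5. Without the block these were 0.30, 0.27 and 0.21. The block fit has fewer degrees of freedom, and the labels do not say that equal numbers pair the arrays. A p that misses the threshold does not show that these transcripts were at equal levels. In bulk RNA, fewer cells that express a gene and less transcript per cell cannot be told apart.

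**Figure D4:**
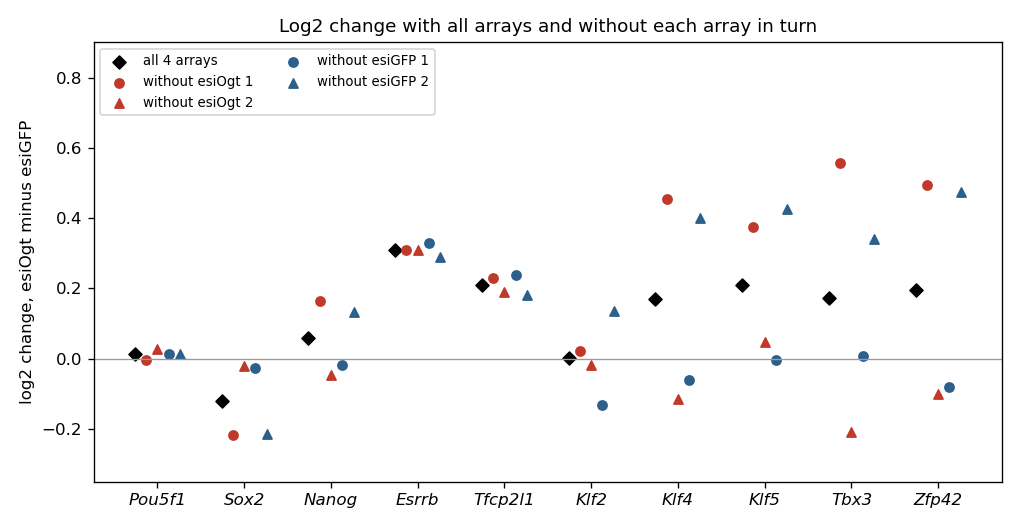
Log2 change, esiOgt minus esiGFP (y axis), of each member with all 4 arrays (black) and without each array in turn (red, an esiOgt array left out; blue, an esiGFP array left out; circle, replicate 1; triangle, replicate 2). Esrrb and Tfcp2l1 stay above 0 in each case, between 0.18 and 0.33, and Sox2 stays below 0. Pou5f1, Nanog, Klf2, Klf4, Klf5, Tbx3 and Zfp42 lie on both sides of 0.

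Other genes around the network were taken from lists of factors and targets, and none of them passed over all probe sets. Over all gene symbols, 6.06% stood at an unadjusted p under 0.05 in limma, and 51.2% were higher in esiOgt cells. The counts below stand beside these shares. Of 31 partners and cofactors of the network, such as Sall4 and Nr0b1, 21 were higher and 10 lower in esiOgt cells, with a median log2 change of 0.10 and 0 at an unadjusted p under 0.05. Replicate 2 was the higher array in both groups for 22 of them and the lower for 5. Nr0b1, whose product Dax1 binds Oct4, read 11.67 and 12.09 in esiOgt cells, against 11.37 and 11.91 in esiGFP cells. Gbx2, a homeobox gene under STAT3, read 7.17 and 8.24 in esiOgt cells, against 7.64 and 8.73 in esiGFP cells. Both genes were higher in replicate 2 of each group, as Klf4 and Zfp42 were.

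Of 31 known target genes of Oct4, Sox2 and Nanog, 18 were higher and 13 lower, with a median of 0.01, and 2 stood at an unadjusted p under 0.05. Jam2, a junction adhesion gene, was higher in esiOgt cells, with readings of 12.08 and 12.26 in esiOgt cells, against 11.69 and 11.66 in esiGFP cells (log2 change 0.50, SE 0.13, limma unadjusted p = 0.0155). The other was Lefty1, which encodes a Nodal antagonist and was lower in esiOgt cells. It read 7.28 and 8.46 in esiOgt cells, against 9.19 and 9.27 in esiGFP cells (log2 change -1.36, SE 0.42, limma unadjusted p = 0.0272). Its relative Lefty2 had a log2 change of -1.22 (SE 0.47, limma unadjusted p = 0.0544). Fgf4, a classic target of Oct4 and Sox2 bound side by side, read 11.88 and 11.63 in esiOgt cells, against 11.67 and 11.38 in esiGFP cells. The Fgf4 groups overlapped.

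Of 13 genes of the LIF and STAT3 input, 10 were higher and 3 lower, with a median of 0.12 and 1 at an unadjusted p under 0.05. Replicate 2 was the lower array in both groups for 10 of them and the higher for 2. The gene under 0.05 was Jak2, a kinase of cytokine receptors, at 7.43 and 7.77 in esiOgt cells, against 7.07 and 7.03 in esiGFP cells. Socs3, a direct target of STAT3, read 9.19 and 8.59 in esiOgt cells, against 9.47 and 9.24 in esiGFP cells. It was lower in replicate 2 of each group, while Klf4, another STAT3 target, was higher there.

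Genes of the primed epiblast, the state that follows when the naive factors are lost, were lower in 11 of 15 cases, with a median of -0.17. At an unadjusted p under 0.05 there were 2, Sox3 and Sox11. The mean levels of the 15 genes over the arrays ran from 4.92 to 10.66, so some lay below the array medians. Otx2, a homeobox gene of that state, read 9.36 and 9.43 in esiOgt cells, against 9.69 and 9.42 in esiGFP cells, and Fgf5 read 6.08 and 6.79 in esiOgt cells, against 5.83 and 6.42 in esiGFP cells. Both overlapped between groups. Pou3f1, a POU factor gene of that list, read 7.84 and 7.75 in esiOgt cells, against 7.89 and 8.12 in esiGFP cells. Its groups did not overlap, as was so for 8 of the 15 genes, against 39.5% of all symbols.

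Relatives of the members were mixed. Of 14 other Klf genes 6 were higher and 8 lower (median -0.09), with 1 at an unadjusted p under 0.05. This was Klf7, which read 7.46 and 7.69 in esiOgt cells, against 8.27 and 8.54 in esiGFP cells (log2 change -0.83, SE 0.16, limma adjusted p = 0.674). Of 18 other Sox genes 4 were higher and 14 lower (median -0.19), with 4 at an unadjusted p under 0.05, all lower (Sox3, Sox11, Sox12 and Sox14). Sox3 and Sox11 are also on the primed epiblast list, so these counts are not separate observations. The mean over the 18 was 6.78 and 6.74 in esiOgt cells, against 6.89 and 6.95 in esiGFP cells. The array medians were 6.40 to 6.46, so many of these genes read low. Of 31 Tbx, Pou, Esrr and CP2 relatives 12 were higher and 19 lower (median -0.12), with 1, Tbx15, at that level.

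Markers of other cell types were counted in the same way. At an unadjusted p under 0.05 there were 2 of 19 fibroblast markers, 1 higher and 1 lower in esiOgt cells. Of 15 primitive endoderm markers there were 3 at that level, 2 higher and 1 lower. There was 1 of 12 trophectoderm markers, which was higher, and 0 of 11 markers of the 2-cell-like state. The share over all symbols was 6.06%. The median log2 changes of these lists were -0.04, 0.05, 0.06 and -0.51 in that order. The value of the 2-cell-like list stood beside gaps between replicates of up to 3.66 log2 units, in Zscan4c.

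**Figure D5:**
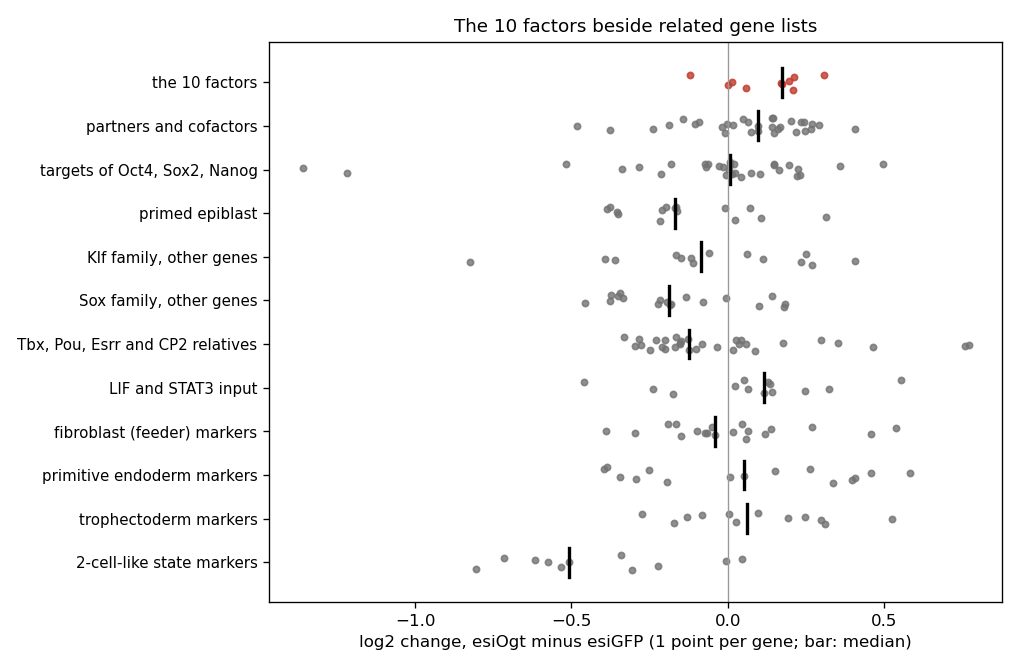
Log2 change between esiOgt and esiGFP cells (x axis) of the 10 members (red) and of the genes of 11 other lists (grey), 1 point per gene, with a bar at each median. The members lie between -0.12 and 0.31, and the most negative points are Lefty1 and Lefty2 among the targets of Oct4, Sox2 and Nanog.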

How the data were processed

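The 4 one-colour arrays were made from 150 ng of total RNA per sample, per the labels' protocols. The deposited values are log2 expression values, made with RMA per the submitters' processing notes, and RMA equalises the distributions of the arrays. Per the file headers, the authors' deposited table adds their own p-value and log2 fold change per probe set, and the notes name limma. Tool versions, the array type and the build: not given in the sources used here. The 2 deposited tables hold identical expression values.

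All 34760 probe sets were fitted in R 4.3.3 (limma 3.58.1, lmFit then eBayes), with group as the only term (2 residual degrees of freedom, 4.38 after moderation) and Benjamini-Hochberg adjustment over all probe sets. It matched the authors' deposited table within 4.84e-08 in p-values and 4.55e-08 in log2 fold changes. It was tested on simulated data. The probe set with the highest mean stood for a gene. All 10 members are named. From the other lists, genes came from the 3 with the smallest p, from markers and Otx2, Pou3f1 and Fgf5. Dppa5a, Lin28a, Nr0b1, Gbx2, Socs3, Fgf4 and Zscan4c were chosen after their values were seen. The members and all lists were chosen with earlier results of these data known. Array numbers limit precision, and no batch is labelled. Alternatives covered scaling, filters, the variance prior, the replicate block and each array left out.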

Additional observations from a re-analysis of the deposited data

How the results depend on the processing

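None of the 10 members passed over all probe sets under any alternative with all 4 arrays, and neither did any other probe set tested. The log2 changes of the members kept their sign in 108 of 120 member values over 12 alternative fits, and those of Sox2, Esrrb and Tfcp2l1 did so in each. The other 12 turned, all of them under quantile normalization or with 1 array left out. The filters, the mean over probe sets, the variance priors and the replicate block could not change a member's log2 change. Their agreement was thus fixed in advance. Quantile normalization put Klf2 at -0.0011. Leaving out 1 array at a time gave -0.0046 to 0.029 for Pou5f1, -0.047 to 0.16 for Nanog, -0.13 to 0.14 for Klf2, -0.11 to 0.46 for Klf4, -0.0032 to 0.42 for Klf5, -0.21 to 0.56 for Tbx3 and -0.10 to 0.49 for Zfp42. Over the same 4 fits the number of members higher in esiOgt cells ran from 4 to 9 and the median log2 change from -0.021 to 0.27. Each of these fits leaves 1 group with 1 array, which is assumed to vary like the other group, and unbalances the replicate numbers. The number of members at an unadjusted p under 0.05 was 1 in the main fit. It was 0 with each array centred on its median, against 5.66% of symbols, and 0 with a robust prior, against 5.87%. In the other alternative fits with all arrays it stayed at 1, against 5.95% to 13.4% of symbols. At a threshold of 0.01 it was 0, and the share of symbols at that threshold was not counted. The replicate numbers are not said to pair the arrays, although deviations of equal numbers correlated at 0.479 over probe sets. With the replicate block 1 member, Esrrb, stood at an unadjusted p of 0.0380, against 13.4% of symbols, and 0 passed (adjusted p of Esrrb 0.319). Ogt kept its direction throughout.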
